A study of Mus musculus with 24 samples.

Results

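The comparison described here was between aged wild type (WT) mice and mice carrying a kinase-dead (KD) form of MSK1, all of which had lived under environmental enrichment. It held 6 WTEE libraries (mice 10, 11, 13, 16, 17 and 21) and 6 KDEE libraries (mice 9, 12, 14, 15, 20 and 22), which were 12 of the 24 libraries of the series. Each library was made from the hippocampus of 1 male mouse of 21 to 23 months. The KD mice were homozygous for a point mutation in the endogenous Rps6ka5 gene that replaces an aspartate by alanine and inactivates the N-terminal kinase domain of MSK1. Both genotypes were on a C57-Bl/6J background reached by at least 4 backcrosses from C57-Bl/6n, and they were bred as separate homozygous lines, so genotype cannot be told apart from any other difference between the lines. Enriched mice had been moved at 18 months from standard cages to large cages with a running wheel, toys, tubes and a ladder, and were otherwise experimentally naive. Standard housed WT mice (WTSH, 4 libraries used) and KD mice (KDSH, 5 libraries used) served as background, and 3 further standard housed libraries were left out of the fits, as the study had done.

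The genes examined first were the protein-coding genes with a mean of 100 or more raw counts over the 12 libraries, named Gm and Rik gene models excepted. There were 12487 of them, which was 58.5% of the 21330 protein-coding symbols, and all 12487 passed the filter on low counts and were tested. They are called the well-counted genes here. Low-count Gm and Rik gene models, which are annotated transcripts without an established name, numbered 23424, of which 3419 passed the filter. A total of 20187 genes were tested. The cut at 100 fell in a dense part of the distribution: Scx (99.4 counts), Gem (99.5) and Stbd1 (99.7) lay just outside it, and Six4, Ifi35 and Sytl5 (100.1 each) just inside.

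MSK1 is a nuclear protein kinase that ERK and p38 MAP kinases switch on when neurons are active or meet the neurotrophin BDNF. It phosphorylates the transcription factor CREB and histone H3, and through them it assists the transcription of activity-regulated genes. Immediate early genes such as Fos, Egr1 and Arc are the best known of these in the hippocampus, where they accompany synaptic plasticity and learning.

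The protein has a kinase domain at each end, and each has an Asp-Phe-Gly motif whose aspartate is needed for catalysis. Translation of the annotated Rps6ka5 transcript (863 residues, minus strand) placed these motifs at residues 194 and 629. The mutation D194A alters the first of them. The paper's genotyping product was longer for the targeted allele than for WT, so the alleles also differ outside the mutated codon. The reference coding sequence around this codon, in exon 5 of 18 at chr12:100616000-100616062 (GRCm38), is shown 5′ to 3′. The aspartate codon, in which the designed substitution lies, is in capitals.
Rps6ka5: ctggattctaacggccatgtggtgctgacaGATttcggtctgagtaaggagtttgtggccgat

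The Rps6ka5 transcript itself was present in both genotypes. Its normalised count, which is the raw count scaled to the mean effective size of the 21 libraries, was lowest at 665, had a median of 1099 and was highest at 1196 in WTEE, against 1106, 1133 and 1173 in KDEE. The ranges overlapped, and WTEE mouse 10 lay far below the 1071 to 1196 of the other WTEE mice. The log2 fold change, which is always given as WTEE over KDEE, was -0.13 (SE 0.09, edgeR adjusted p = 0.957) and did not pass the test. Without WTEE 10 it was -0.03. A point mutation need not alter the level of a transcript, so this value does not check the genotype labels. The paper reports that aligned reads of the KD samples carried the mutation, a check that was not repeated here.

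Total counts on genes ranged from 42687669 to 71907130 per library in WTEE and from 27410239 to 50910416 in KDEE, so WTEE libraries were deeper (exact permutation p = 0.0303, BH adjusted p = 0.051 over 11 library values). All WTEE libraries detected more genes with at least 1 count than any KDEE library (28597 ± 535 against 26781 ± 651, exact permutation p = 0.00216, the smallest that 6 against 6 can give, adjusted p = 0.0238). Read pairs that aligned outside annotated exons took 11.5% ± 1.54 of the pairs in WTEE and 9.401% ± 0.852 in KDEE (exact permutation p = 0.0108, adjusted p = 0.051), and 1 KDEE library lay above the lowest WTEE library. Counts on a list of abundant structural RNA models took 0.754% ± 0.342 in WTEE and 0.274% ± 0.304 in KDEE (exact permutation p = 0.0303, adjusted p = 0.051). This list also held the protein-coding gene Lars2 and the gene models Gm10800 and Gm10801. Hippocampal neuron markers were abundant in all libraries, with summed normalised counts of 212957 to 248528. Choroid plexus markers were high in 4 of the 12 libraries. The best known of them, the transthyretin gene Ttr, was at 119756 to 434674 in WTEE 10 and 13 and KDEE 12 and 14 and at 1026 to 4207 in the others. WTEE 10 stood apart from its group in several transcripts, with a Malat1 count of 137732 against 41109 to 69953 and a Camk2a count of 111156 against 195051 to 227185 in the other WTEE libraries.

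**Figure D1:**
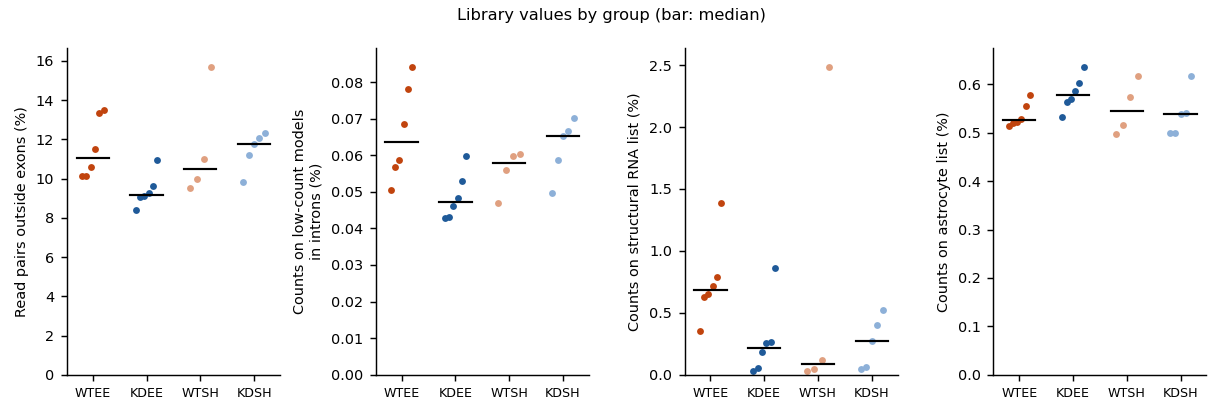
Values per library in the 4 groups, as a percentage of read pairs (left) or of counts on genes (the other panels); each point is 1 library and each bar a group median. The WTEE libraries lie between 10.2% and 13.5% outside exons and the KDEE libraries between 8.41% and 10.9%, while for the astrocyte list KDEE libraries reach 0.637% and WTEE libraries 0.578%.

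No well-counted gene passed the test between genotypes in enriched mice. In edgeR's quasi-likelihood test, 0 of the 20187 tested genes (0%), and so 0 of the 12487 well-counted genes, passed an adjusted p under 0.05 together with a fold change over 1.3 (0.38 on the log2 scale). The smallest adjusted p of a well-counted gene was 0.189. At an unadjusted p under 0.05 there were 1007 genes in all, of which 349 were well-counted. With DESeq2's Wald test 118 genes passed, each with more counts in WTEE, but the number of well-counted genes among them was 0.

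Among the 349 well-counted genes with an unadjusted p under 0.05, 127 were higher and 222 lower in WTEE. Over all tested genes 3.21% were higher and 1.77% lower at this threshold, against 1.02% and 1.78% of the well-counted genes. The count of higher genes therefore lay below that background and the count of lower genes at it. These counts depended on single libraries: the higher genes numbered 241 without KDEE 15 and 210 without WTEE 13, and the lower genes 147 without KDEE 12, 133 without KDEE 14 and 378 without WTEE 13. Groups did not overlap in 5 well-counted genes that were higher and 15 that were lower, and over all tested genes in 0.52% and 0.104% respectively.

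The fold changes of the well-counted genes were small. Their median log2 fold change was -0.01, with 90% between -0.19 and 0.15 and a median SE of 0.09. The 95% confidence interval lay wholly within the 1.3-fold threshold for 10021 of them (80.3%), and its median half-width was 0.18. The interval allowed a 1.3-fold increase for 1146 genes and a 1.3-fold decrease for 1650. Genes at 100 to 1000 counts gave 66 higher and 115 lower of 4730 at an unadjusted p under 0.05, those at 1000 to 10000 counts 57 and 92 of 6834, and those at 10000 counts or more 4 and 15 of 923.

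**Figure D2:**
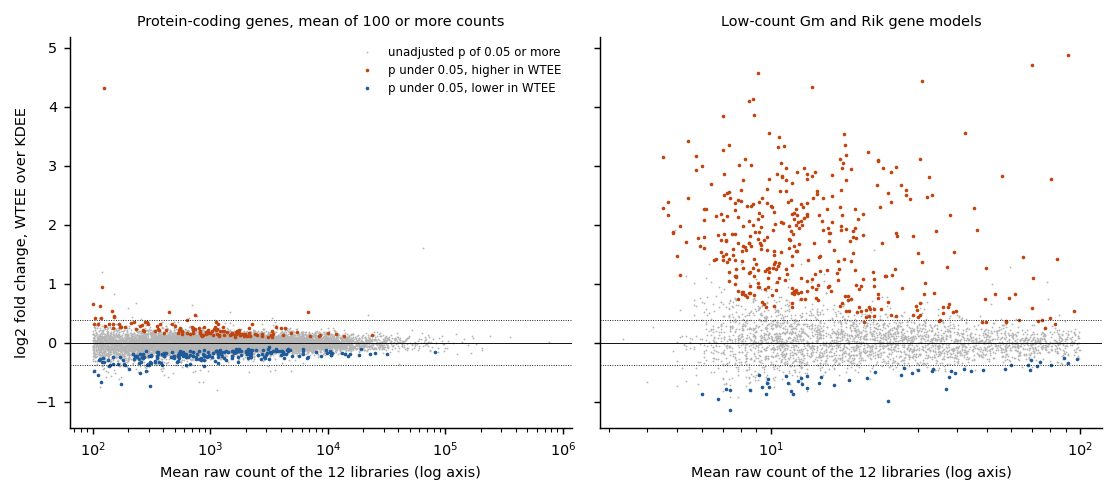
Log2 fold change of each gene (WTEE over KDEE) against its mean raw count on a log axis, for the 12487 well-counted genes (left) and the 3419 tested low-count gene models (right); coloured points had an unadjusted p under 0.05 and dotted lines mark 0.38. The well-counted genes hug the zero line with 127 higher and 222 lower, whereas the gene models show 402 higher and 52 lower.

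The well-counted genes with the smallest p values that were higher in WTEE did not pass adjustment, and are given as values. Rtl1, an imprinted gene derived from a retrotransposon, ranged from 341 to 466.4 normalised counts in WTEE (median 395) and from 268 to 349 in KDEE (median 329), with a log2 fold change of 0.32 (SE 0.09, edgeR adjusted p = 0.285). Of the 6 WTEE libraries, 5 lay above the highest KDEE library. Gadd45b, a stress and activity-induced gene linked to DNA demethylation in neurons, ranged from 595 to 805 (median 679) in WTEE and from 419 to 608 (median 547) in KDEE, with a log2 fold change of 0.38 (SE 0.12, edgeR adjusted p = 0.361). Again 5 of 6 WTEE libraries exceeded every KDEE library. Mettl6, which methylates transfer RNA, had 656 to 735 in WTEE and 596 to 637 in KDEE and a log2 fold change of 0.15 (SE 0.05, edgeR adjusted p = 0.339). Its groups did not overlap.

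The groups did not overlap either for Med7, a subunit of the Mediator complex, at 245 to 316 normalised counts in WTEE and 214 to 225 in KDEE (log2 fold change 0.28, SE 0.09). The same was true of Htra4, a secreted serine protease, at 117.5 to 148.5 and 77.5 to 112 (log2 fold change 0.42, SE 0.13). Banp (log2 fold change 0.32, SE 0.12), which codes for a DNA-binding protein, and Rasl11a (0.20, SE 0.09), a small GTPase, were the other 2 such genes, picked out after their values were seen. Epor, the erythropoietin receptor, had values of 280 to 412 in WTEE and 223 to 299 in KDEE, with a log2 fold change of 0.35 (SE 0.11), and its highest value came from WTEE 10. D10Wsu102e was at 1949 to 2658 and 1741 to 2088 (log2 fold change 0.24, SE 0.07, edgeR adjusted p = 0.234, the smallest of a well-counted gene that was higher). Annotated exons of D10Wsu102e overlap those of Aldh1l2, and exons of Mettl6 those of Eaf1. Exons of Med7, Htra4, Rps6ka5 and Mt2 overlap those of unnamed models. Read pairs on several genes were tallied apart, so pairs on these shared positions may be missing from the counts.

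Among the well-counted genes with an unadjusted p under 0.05, the largest positive fold changes were those of Gh, Lrg1, Mt2, Mylk3 and Adgrf4. Each was smaller without 1 of the libraries. Lrg1, a secreted glycoprotein of the vasculature, had a log2 fold change of 0.94 (SE 0.29, edgeR adjusted p = 0.377), with 71.5 to 293 normalised counts in WTEE and 41.02 to 114 in KDEE, and 3 of 6 WTEE libraries within the KDEE range. It was at 0.59 without WTEE 13. Mylk3, a myosin light chain kinase best known from heart, reached 227 in WTEE 17 against 97.1 to 127 in the other WTEE libraries and 61.1 to 102 in KDEE (log2 fold change 0.62, SE 0.19, and 0.40 without WTEE 17). Of 6 WTEE libraries 5 lay above every KDEE library. Adgrf4, an adhesion G protein-coupled receptor, reached 266 in the same library against 123 to 158 in the others and 98.8 to 140 in KDEE (0.54, SE 0.17, and 0.36 without WTEE 17), with 4 of 6 WTEE libraries above every KDEE library. A fit added after the data were seen carried the share of pairs outside exons as a covariate. In it Mylk3 was at 0.33 (unadjusted p = 0.107, edgeR) and Adgrf4 at 0.26 (unadjusted p = 0.116, edgeR). Mt2, a metal-binding metallothionein, reached 275 in WTEE 10 against 58.0 to 113 in the rest of its group (0.66, SE 0.30, and 0.23 without WTEE 10). Gh, the growth hormone gene, was at 206 to 556 in WTEE 11, 13 and 21 and at 1.71 to 22.1 in the other WTEE libraries, against 0.954 to 37.6 in KDEE (4.32, SE 1.69, edgeR adjusted p = 0.724, and 3.75 to 5.26 without each library in turn). Prl, the prolactin gene and another pituitary marker, was at 697 in WTEE 21 and at no more than 23.6 elsewhere in that group.

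The 10 well-counted genes with the smallest p that were lower in WTEE did not pass adjustment either. Slc6a11, the GABA transporter GAT-3 of astrocytes, ranged from 6311 to 8542 normalised counts in WTEE (median 8088) and from 8521 to 9522 in KDEE (median 9270), with a log2 fold change of -0.23 (SE 0.06, edgeR adjusted p = 0.224). The ranges overlapped by 1 library on each side, and the WTEE minimum was mouse 10. Plpp3, a phosphatase of lipid mediators, ranged from 12364 to 15139 and from 14144 to 17201 (-0.19, SE 0.06, edgeR adjusted p = 0.304). Tril, a partner of Toll-like receptor signalling, ranged from 2122 to 2448 and from 2409 to 2962 (-0.20, SE 0.06, edgeR adjusted p = 0.265).

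The well-counted gene with the smallest p of all was Plxdc2, a membrane protein with a plexin domain. It was at 1622, 1919 and 2042 normalised counts in WTEE (lowest, median and highest) and at 2053, 2227 and 2401 in KDEE, so that the groups did not overlap. Its log2 fold change was -0.25 (SE 0.06, edgeR adjusted p = 0.189). Epb41l2, a protein of the membrane cytoskeleton, did not overlap either, at 3686 to 3910 and 4006 to 4725 (-0.19, SE 0.06). Arhgef19, a guanine nucleotide exchange factor, was at 1263 to 1562 and 1387 to 1849 (-0.27, SE 0.07), and Tnc, the matrix protein tenascin C, at 193 to 278 and 257 to 373 (-0.37, SE 0.11). Lhx6, a transcription factor of interneurons, was at 906 to 1060 and 984 to 1149 (-0.18, SE 0.05). Tpmt, a methyltransferase of thiopurine drugs, was at 176 to 264 and 259 to 298 (-0.35, SE 0.10), and Cdhr1, a cadherin-related protein, at 263 to 408 and 379 to 500 (-0.38, SE 0.11). None of the 7 passed the test after adjustment. With the covariate Epb41l2 was at -0.11 (unadjusted p = 0.0604, edgeR). In that fit 8 of the 10 leading higher genes and 9 of the 10 lower ones kept an unadjusted p under 0.05. Exons of Tril, Tpmt, Tnc and Lhx6 overlap those of unnamed models, and those of Rtl1 overlap several microRNA genes, so their counts are uncertain.

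**Figure D3:**
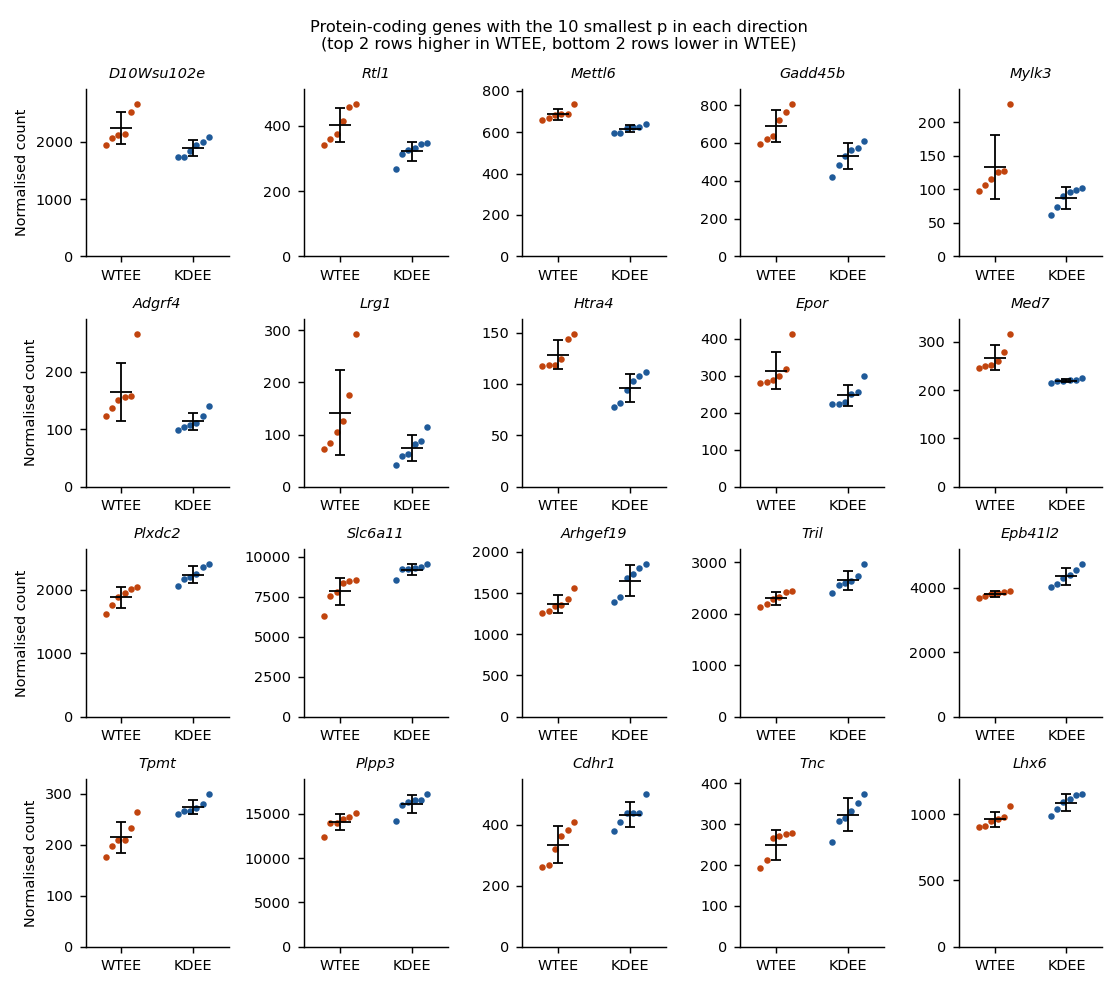
Normalised counts of the 20 well-counted genes with the smallest p (10 in each direction), 1 point per library with the group mean ± SD; axes start at 0. Groups are separate in Mettl6, Htra4, Med7, Plxdc2 and Epb41l2 and touch or overlap in the others, and single WTEE libraries lie far above their group in Mylk3, Adgrf4 and Epor.

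Among the well-counted genes with an unadjusted p under 0.05, the largest negative fold changes were those of Oasl2, Ifit1, Rtp4, Gbp4 and Irgm2. Each is known to be inducible by interferon, but they were picked by their fold and no list of such genes was examined. Oasl2, related to the enzymes that sense viral RNA, was at 160, 218 and 343 normalised counts in WTEE (lowest, median and highest) and at 238, 397 and 538 in KDEE, with a log2 fold change of -0.74 (SE 0.24, edgeR adjusted p = 0.44). Of the KDEE libraries, 4 exceeded every WTEE library. Irgm2, an immunity-related GTPase, was at 166 to 260 and 213 to 396 (-0.52, SE 0.19), Rtp4, a transmembrane chaperone, at 63.6 to 159 and 119 to 216 (-0.67, SE 0.23), Ifit1, an inhibitor of viral translation, at 97.9 to 253 and 89.2 to 338 (-0.70, SE 0.33), and Gbp4, a guanylate-binding protein, at 67.5 to 136 and 74.9 to 196 (-0.56, SE 0.27). In all 5 genes WTEE 10 was the highest WTEE library. KDEE 14 was the highest KDEE library for Oasl2, Irgm2 and Rtp4, KDEE 22 for Ifit1 and KDEE 9 for Gbp4. For Oasl2, Ifit1, Rtp4 and Irgm2, KDEE 12, 14 and 22 lay above the other KDEE libraries and KDEE 15 was the lowest. High values of these 4 genes thus came from the same mice, so the genes are not independent. With the share of pairs outside exons as a covariate, a fit added after the data were seen, Oasl2 was at -0.58 (unadjusted p = 0.0447, edgeR), and the other 4 no longer had an unadjusted p under 0.05, at -0.49 for Ifit1, -0.46 for Rtp4, -0.37 for Gbp4 and -0.31 for Irgm2. Gbp4 and Irgm2 share exonic positions with other GTPase genes, and their counts are uncertain.

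No kinase of the pathway passed the test. All 14 members of the list of MSK and RSK kinases and their upstream MAP kinases were well-counted, 0 of 14 had an unadjusted p under 0.05, and their median log2 fold change was 0.00, as it was over all tested genes. Rps6ka4, the gene for the sister kinase MSK2, had a log2 fold change of -0.01 (SE 0.05) from means of 2138 ± 159 and 2154 ± 88.1 normalised counts (SD, n = 6 each). Map2k1, the gene for the ERK activator MEK1, was at 15744 and 15282 normalised counts on average (0.04, SE 0.05). Of the CREB factors and coactivators 9 of 10 were tested, 0 had an unadjusted p under 0.05, and their log2 fold changes lay between -0.19 and 0.11, with Crtc1, the gene for a CREB coactivator, at -0.08 (SE 0.11) and Ep300, an acetyltransferase that acts with CREB, at -0.10 (SE 0.14). Creb5 was at or under 3 counts in every library.

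Bdnf was the 1 of 8 tested neurotrophin and receptor genes with an unadjusted p under 0.05. It was at 1553, 1744 and 2275 normalised counts in WTEE (lowest, median and highest) and at 1435, 1632 and 1746 in KDEE, and 3 of 6 WTEE libraries lay above the KDEE range. Its log2 fold change of 0.16 (SE 0.07, edgeR adjusted p = 0.942) did not pass the test, and the highest value came from WTEE 17. It was 0.09 without that library, and 0.10 (unadjusted p = 0.252, edgeR) with the share of pairs outside exons as a covariate. The median of the 8 genes was -0.04, and Ntrk2, the BDNF receptor gene, was at -0.16 (SE 0.08).

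No immediate early gene passed the test. All 24 genes of the list were well-counted, and 20 of 24 had a positive log2 fold change, with a median of 0.15, against a median of 0.00 and 49.5% positive over all tested genes. Members of this list are induced together, so that 20 of 24 is not a count of independent genes. The 4 negative ones were Jun, Egr3, Homer1 and Dusp4, named after their values were seen. Only Dusp5, a phosphatase that turns off nuclear ERK, had an unadjusted p under 0.05 in this test, at 1085, 1128 and 1445 normalised counts in WTEE and 795, 943 and 1160 in KDEE (0.35, SE 0.14, edgeR adjusted p = 0.705). Its ranges overlapped, with 5 of 6 KDEE libraries below the lowest WTEE library. Fos, chosen after its values were seen, was at 1241 to 2239 in WTEE and 678 to 1437 in KDEE (0.52, SE 0.26), and Egr1 at 6268 to 11104 and 6725 to 8456 (0.07, SE 0.14). Wild type mouse 16 had the highest Fos, Egr1 and Arc values of the 12 mice. The number of positive genes lay between 16, without WTEE 16, and 22, without WTEE 10, and under standard housing the median of the list was 0.03. With the share of pairs outside exons as a covariate, 18 of 24 were positive with a median of 0.09, 0 had an unadjusted p under 0.05, and Dusp5 was at 0.27 (unadjusted p = 0.0924, edgeR). Genes of the list with an unadjusted p under 0.05, all higher in WTEE, numbered 6 with only the 12 enriched libraries. They numbered 4 without a filter on low counts, 3 with DESeq2 and 1 after thinning, and no gene of the list passed adjustment in these fits.

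Sequence shared by these genes was looked for in RefSeq promoter windows (GRCm38.p6, 250 bases before to 50 after a start site). The cAMP response element, to which CREB binds, was searched as its 5-base half-site TGACG on either strand (CGTCA) and as the full 8-base palindrome TGACGTCA, each match of which also holds both half-sites. Half-sites were found in 15 of 23 windows of the immediate early genes (65.2%, 18 of 24 genes with a window), against 20.8% of all 32851 windows and 29.8% of the windows of well-counted genes. Windows of 1 gene can overlap and hold the same site. Counted by gene, 13 of the 18 had a match (72.2%), against 23% of all genes with a window and 35% of the well-counted ones. They were found in 31.7% of 126 windows of the well-counted genes that were higher at an unadjusted p under 0.05 and in 19.2% of 229 windows of those that were lower. A match is a run of letters and not a measured site. Stretches with the match nearest the start site are shown for Dusp5, for Btg2 and Dusp1, the 2 genes of the list with the full palindrome, and for the 1 of 7 Bdnf windows with a match, all in 5′ to 3′ direction of the gene with the match in capitals.
Dusp5, chr19:53529050-53529134, plus strand: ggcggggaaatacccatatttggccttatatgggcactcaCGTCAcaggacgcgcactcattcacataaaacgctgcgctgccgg
Btg2, chr1:134079274-134079361, minus strand: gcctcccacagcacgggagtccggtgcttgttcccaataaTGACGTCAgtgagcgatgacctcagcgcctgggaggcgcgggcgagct
Dusp1, chr17:26508568-26508655, minus strand: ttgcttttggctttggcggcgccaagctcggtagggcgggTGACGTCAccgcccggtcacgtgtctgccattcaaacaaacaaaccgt
Bdnf, chr2:109692361-109692435, plus strand: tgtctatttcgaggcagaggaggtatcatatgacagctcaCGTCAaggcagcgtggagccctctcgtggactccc

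Beside these matches, Btg2, an antiproliferative immediate early gene, had a log2 fold change of 0.33 (SE 0.19) and Dusp1, a phosphatase of MAP kinases, one of 0.29 (SE 0.17). Neither reached an unadjusted p of 0.05. Nr4a1, Nr4a2 and Nr4a3 had 4 half-site matches each, and Homer1 had 3 in 1 of its 2 windows. Their log2 fold changes were 0.25 (SE 0.18), 0.00 (SE 0.15), 0.04 (SE 0.11) and -0.01 (SE 0.12). Whether a match went with a higher count in WTEE was not tested. The 10 leading genes that were higher in WTEE had a match in 2 of 11 windows, and the 10 that were lower in 0 of 12. Those 2 windows are overlapping windows of Med7 that hold the same site, so 1 of 8 genes with a window had a match.

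Genes for synaptic proteins showed small values in both directions. Of 10 AMPA and NMDA receptor subunits, 1 had an unadjusted p under 0.05: Grin3a, which codes for a subunit that dampens NMDA receptor currents, at 1585 to 2155 normalised counts in WTEE and 2060 to 2519 in KDEE (-0.19, SE 0.07). Of 16 synaptic scaffold and release genes the count was 0, with log2 fold changes from -0.16 to 0.22. The vesicle fusion gene Snap25 was at 0.03 (SE 0.06), and the kinase gene Camk2a at -0.09 (SE 0.12) with WTEE 10 and at 0.03 without it. Of 12 GABA-A receptor subunits, Gabra5, which gives tonic inhibition in hippocampus, was at 0.12 (SE 0.06) and Gabrg1 at -0.20 (SE 0.08), each with an unadjusted p under 0.05. Neither kept it with the share of pairs outside exons as a covariate, at 0.04 and -0.14.

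Of 8 astrocyte markers, 7 had negative log2 fold changes, and 3 had an unadjusted p under 0.05, with a list median of -0.14 against 0.00 over all tested genes. The 3 were Aqp4, the water channel of astrocyte endfeet, at 4799, 6313 and 6711 normalised counts in WTEE (lowest, median and highest) and 6404, 7158 and 8032 in KDEE (-0.26, SE 0.08, edgeR adjusted p = 0.343), Gja1, the gap junction protein connexin 43, at 8636 to 9955 and 9717 to 11098 (-0.18, SE 0.06), and Slc1a3, the glutamate transporter GLAST, at 26311 to 32342 and 30840 to 37614 (-0.19, SE 0.07). Values overlapped in all 3. Over all tested genes 49.5% had a positive log2 fold change, and 1.77% were lower at an unadjusted p under 0.05. Markers of 1 cell type can vary together between libraries, so 7 of 8 is not a count of independent genes. In a bulk tissue library, fewer astrocytes and less RNA of these genes per astrocyte cannot be told apart. Gfap, the intermediate filament of reactive astrocytes, was at 0.10 (SE 0.10). The share of all counts that fell on the list was 0.536% ± 0.025 in WTEE and 0.582% ± 0.036 in KDEE (exact permutation p = 0.0281, adjusted p = 0.051). The share of read pairs outside exons moved with these groups, and in the fit that carried it as a covariate 1 of the 8 markers kept an unadjusted p under 0.05 and the list median was -0.08.

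Among 12 microglia markers, Cx3cr1, the fractalkine receptor gene, did not overlap between groups (2517 to 2873 normalised counts in WTEE and 2921 to 3556 in KDEE, log2 fold change -0.21, SE 0.08), and the list median was -0.11 with 0 others under an unadjusted p of 0.05. With the share of pairs outside exons as a covariate the median was -0.0039, 6 of 12 were positive, and Cx3cr1 was at -0.17 (unadjusted p = 0.0754, edgeR). Among 10 oligodendrocyte lineage markers, Pdgfra, which marks precursor cells, was at -0.17 (SE 0.06), or -0.13 with the covariate (unadjusted p = 0.0835, edgeR), and the list median was -0.03. The 15 hippocampal neuron markers had a median of 0.00. Bok, a BCL-2 family gene, was the 1 with an unadjusted p under 0.05 (0.24, SE 0.10). With the covariate Bok was at 0.21 (SE 0.12, unadjusted p = 0.0847, edgeR). Among 11 interneuron markers Npy, the neuropeptide Y gene, was at 0.32 (SE 0.15), or 0.28 with the covariate (unadjusted p = 0.131, edgeR), and Lhx6 has been described. Of 10 markers of adult neurogenesis 0 had an unadjusted p under 0.05, and Stmn2 and Tubb3, 2 genes of growing neurites, were at 0.05 (SE 0.06) and 0.06 (SE 0.08).

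**Figure D4:**
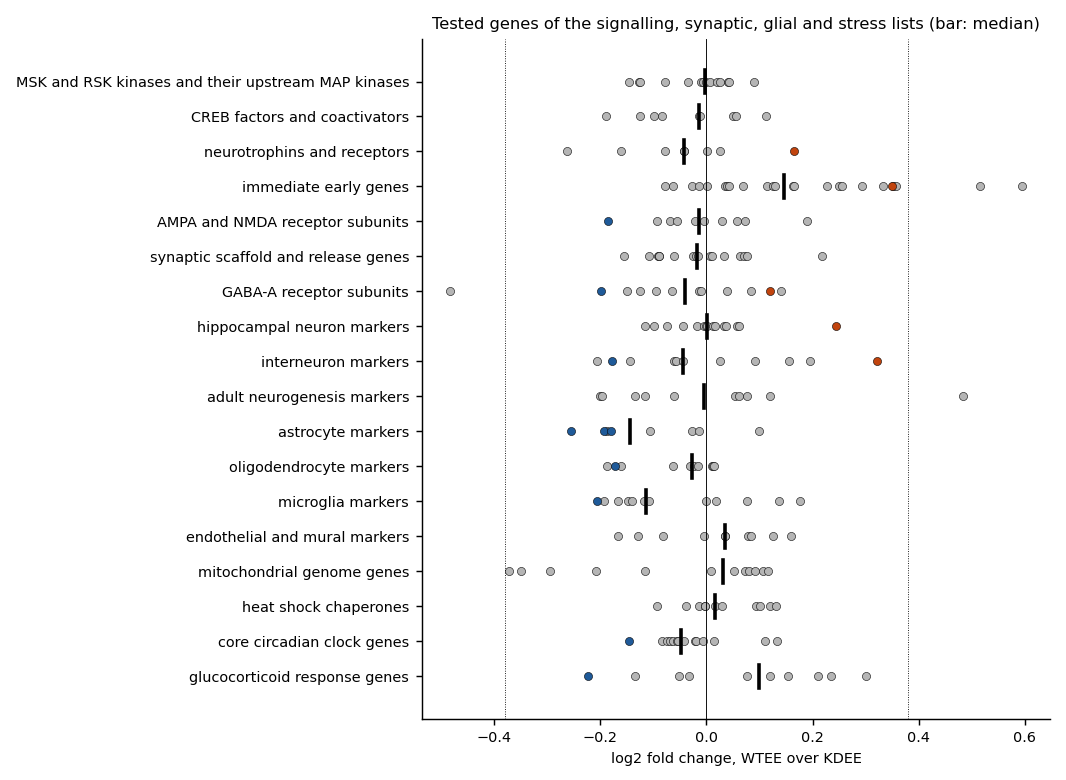
Log2 fold changes (WTEE over KDEE) of 216 tested genes in 18 lists, 1 point per gene, with the list median as a bar; orange and blue points had an unadjusted p under 0.05. The immediate early genes have a median of 0.15 and the astrocyte markers one of -0.14, and 2 immediate early genes and 1 neurogenesis marker lie above 0.38 without reaching that p, as does 1 GABA-A receptor subunit below -0.38.

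Markers of other tissues and of stress gave few differences. Choroid plexus markers, 12 of 12 tested, had 0 with an unadjusted p under 0.05 and SEs of 0.75 to 1.56, with log2 fold changes of -0.13 (SE 1.56) for Ttr and -0.47 (SE 0.75) for Kl. Endothelial and mural markers had a median of 0.03, with Slc2a1, the glucose transporter of brain vessels, at 0.03 (SE 0.12) and Rgs5, a pericyte gene, at 0.08 (SE 0.06). Meningeal markers had a median of 0.00, with Ptgds at 0.47 (SE 0.46) and Igf2 at -0.30 (SE 0.67). Red blood cell markers ranged from 0.29 to 0.41, with the globin genes Hba-a1 at 0.31 (SE 0.42) and Hbb-bs at 0.41 (SE 0.40). Without WTEE 21 their median went from 0.39 to -0.00084, with 2 of 5 positive. The immunoglobulin gene Ighm was at 0.22 (SE 0.10). Heat shock chaperones had a median of 0.02, with Hsp90ab1 at 0.00 (SE 0.07) and Hspa8 at 0.02 (SE 0.06). Core clock genes had a median of -0.05, with Cry1 at -0.15 (SE 0.07), and glucocorticoid response genes one of 0.10, with Pdk4, a brake on glucose oxidation, at -0.22 (SE 0.10). With the covariate Cry1, Pdk4 and Ighm no longer had an unadjusted p under 0.05, at -0.06, -0.16 and 0.13. The mitochondrial genes mt-Co1 and mt-Cytb were at 0.01 (SE 0.08) and 0.09 (SE 0.11).

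The neighbourhood of the mutated locus was examined next. Within 5 Mb of Rps6ka5 lay 47 well-counted genes, of which 0 were higher and 1 was lower at an unadjusted p under 0.05, with a median log2 fold change of -0.02. That gene was the tyrosine phosphatase Ptpn21, at 314 to 563 normalised counts in WTEE and 484 to 634 in KDEE (-0.23, SE 0.11). With the share of pairs outside exons as a covariate it was at -0.23 (unadjusted p = 0.0906, edgeR). Of the genes known to differ between C57BL/6 substrains, 5 were tested, and Crb1, a polarity gene, was at 58.7 to 81.4 and 79.2 to 107 (-0.42, SE 0.18). Crb1 was at -0.41 with the covariate (unadjusted p = 0.0779, edgeR).

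The genotype effect under enrichment was then set against that under standard housing, which used other mice and shared no library with it. Of the 12487 well-counted genes, 52.6% had the same sign in both housings. Of the 349 with an unadjusted p under 0.05 under enrichment, 152 (43.6%) had the same sign under standard housing, 4 had also an unadjusted p under 0.05 in the same direction there, and 4 in the opposite direction. The genes that were higher under enrichment had a median of 0.20 there and of 0.01 under standard housing, and those that were lower -0.21 and 0.02. The difference between the genotype effects of the 2 housings passed the test for 0 of the 20187 genes (0%) in edgeR, with 659 genes, 149 of them well-counted, at an unadjusted p under 0.05. DESeq2 called 20 genes, of which 1 was well-counted, the pituitary gene Gh, with a log2 fold change of 4.32 under enrichment and -7.05 under standard housing. The -7.05 leaned on 1 KDSH library. Gh reached 6158 normalised counts there, with a KDSH mean of 1296 and an SD of 2721 over 5 libraries, against at most 29.8 in WTSH. Whether the call for Gh holds without that library was not tested. Arhgef19 had log2 fold changes of -0.27 and 0.15 (unadjusted p of the difference 0.00146, edgeR adjusted p = 0.441), Plxdc2 -0.25 and -0.01 (unadjusted p = 0.025), and Slc6a11 -0.23 and 0.00 (unadjusted p = 0.0255) in the edgeR fit. An effect seen in one housing and not in the other was thus not shown to differ for any well-counted gene in the edgeR fit.

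**Figure D5:**
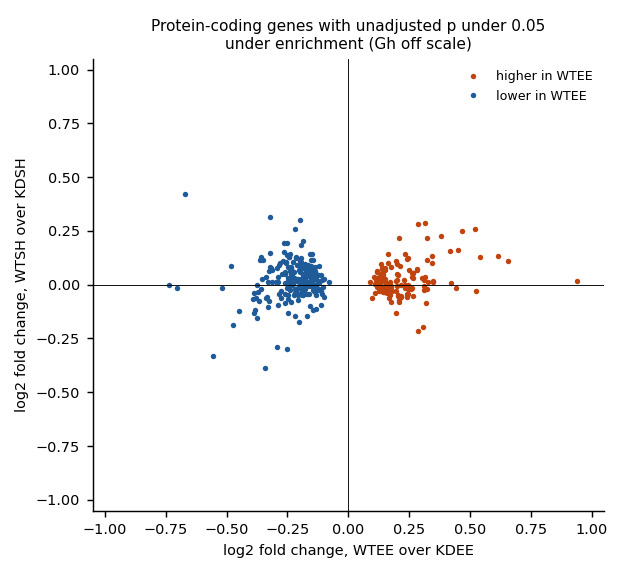
Log2 fold change between genotypes under standard housing (WTSH over KDSH) against that under enrichment (WTEE over KDEE) for 348 well-counted genes with an unadjusted p under 0.05 under enrichment; Gh lies outside the axes. On the horizontal axis the 2 colours are apart by construction, while on the vertical axis both straddle 0, and 152 of the 349 genes keep their sign.

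The low-count gene models gave more counts past this p than the well-counted genes. Of the 3419 tested, 402 were higher and 52 lower in WTEE at an unadjusted p under 0.05 (13.3% together), and their median log2 fold change was 0.05. Those that lie in introns of protein-coding genes gave 293 higher and 7 lower of 1042, and those elsewhere 109 and 45 of 2377. Groups did not overlap in 72 intronic models that were higher and 0 that were lower, and over all tested genes in 0.52% and 0.104% respectively. The filter can pass a model on the counts of 1 group alone, and the WTEE libraries were deeper. Models near 0 in KDEE could thus be tested through their WTEE values, so these counts are a description only. With enriched libraries thinned to the smallest, 201 models were higher and 33 lower. The 293 higher models lay in 179 host genes, 164 of them well-counted, and of these hosts 4 were higher and 0 lower at an unadjusted p under 0.05, with a median log2 fold change of -0.03. For all 732 well-counted hosts of tested models, the median was -0.02.

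Single models differed by several fold from very few counts. Gm43317, in an intron of the potassium channel partner Kcnip4, was at 16.5 to 176 normalised counts in WTEE and 0.954 to 4.10 in KDEE (log2 fold change 4.43, SE 0.91). Gm42822, in an intron of the calcineurin gene Ppp3ca, was at 11.3 to 72.7 and 0.954 to 7.06 (2.94, SE 0.58), and Gm38198, in an intron of Adgrb3, at 24.4 to 87.6 and 2.05 to 13.4 (2.51, SE 0.50). Gm43047, also within Kcnip4, was at 12.2 to 107 and 1.03 to 8.23 (2.98, SE 0.61), and Gm26788, which shares exonic positions with Dst, at 11.3 to 27.5 and 6.90 to 9.54 (1.21, SE 0.23). The groups were separate in all 5, which share the smallest adjusted p of the fit, 0.184. In the same libraries the counts on low-count models in introns took 0.0661% ± 0.0132 of the total in WTEE and 0.0488% ± 0.0066 in KDEE (exact permutation p = 0.0173, adjusted p = 0.051), moving with the share of read pairs outside exons. With that share as a covariate, 206 models were higher in place of 402.

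Of 12 nuclear long noncoding RNAs, 7 had positive and 5 negative log2 fold changes, with a median of 0.01, and 3 had an unadjusted p under 0.05. Malat1, a nuclear noncoding RNA, was at 41109 to 137732 normalised counts in WTEE and 28416 to 38968 in KDEE, without overlap (log2 fold change 1.003, SE 0.23, edgeR adjusted p = 0.184, and 0.66 without WTEE 10). Kcnq1ot1, the noncoding RNA of an imprinted domain, was at 767 to 1972 and 531 to 1044 (0.73, SE 0.19), and Mirg, a microRNA host of the same imprinted cluster as Rtl1, at 793 to 1132 and 643 to 965 (0.25, SE 0.12). With the share of pairs outside exons as a covariate, Malat1 was at 0.87, Kcnq1ot1 at 0.55 and Mirg at 0.17 (unadjusted p = 0.223, edgeR), and the list median was -0.08. Of 8 tested entries of the structural RNA list 8 were positive, with a median of 1.501, or 0.18 with the covariate. Only 2 had an unadjusted p under 0.05, both of them Gm gene models, and no other entry of the list reached it. What these 2 models transcribe was not examined. These 2, Gm10800 and Gm10801, were at 454 to 6929 against 3.08 to 199.97 (5.23, SE 1.22) and at 42.9 to 531 against 1.72 to 14.1 (4.89, SE 1.14).

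The genes named by the study for this comparison lay below the cut at 100 counts or were not protein-coding. Batf3, a transcription factor of type 1 dendritic cells, had a mean raw count of 67.8 and was at 66.8 to 112 normalised counts in WTEE and 35.9 to 58.4 in KDEE, without overlap (log2 fold change 0.73, SE 0.15, edgeR adjusted p = 0.184, DESeq2 adjusted p = 0.0167). It was the 1 type 1 dendritic cell marker of 7 tested that was higher at an unadjusted p under 0.05. Cadm1, an adhesion gene that neurons also express, was lower (-0.13, SE 0.06, unadjusted p = 0.0467), and the defining marker Clec9a had a mean of 24.8 counts and a log2 fold change of 0.05 (SE 0.17). Muc6, a secreted mucin, was at 37.4 to 185 and 25.8 to 44.7 (1.56, SE 0.37), the odorant receptor gene Olfr55 at 9.58 to 34.2 and 3.53 to 12.1 (1.84, SE 0.44), and Svet1, an unclassified transcript in an intron of Unc5d, at 6.07 to 37.6 and 0 to 5.13 (2.58, SE 0.67). With the share of read pairs outside exons as a covariate, Batf3 was at 0.66 (unadjusted p = 0.00138), Muc6 at 1.09 (unadjusted p = 0.00761), Olfr55 at 1.44 (unadjusted p = 0.00812) and Svet1 at 2.28 (unadjusted p = 0.00637) in the edgeR fit.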

How the data were processed

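Hippocampal poly(A) RNA was sequenced from single mice. The authors deposited a raw count of read pairs for each gene symbol. Per the submitters' processing notes, reads were checked with FastQC (0.11.3), aligned with STAR (2.5) to GRCm38 and counted with HTSeq (0.6.1p1). The kit did not keep strand, so pairs on positions shared by overlapping genes could not be given to either gene. Rows for pairs on no gene or on several genes stayed out of library sizes. Groups came from the sample titles. Each library came from 1 mouse, and precision is limited by the 6 mice per group. Enriched mice were housed together in cages, and the sample titles do not name the cage. Mice of 1 group may thus have shared a cage, and any effect of this was not tested.

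Counts were fitted in edgeR (4.0.16, R 4.3.3) by quasi-likelihood with TMM scaling, its default filter on low counts and 1 model of 4 groups over 21 libraries. Genes were called at a Benjamini-Hochberg adjusted p under 0.05 with a log2 fold change beyond 0.38 in either direction. Standard errors were derived from the F statistic. Library values were compared by two-sided exact permutation tests. DESeq2 (1.42.0), other scalings, filters and library sets were alternatives, and the code was tested on simulated data.

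The text names the 10 well-counted genes with the smallest p and the 5 with the largest fold among those with an unadjusted p under 0.05 in each direction, 5 gene models, and up to 4 genes of each list. Beside these, 1 gene that the rule chose is not reported here. The genes and lists were chosen with earlier results of these data known. Of 49568 symbols, 47139 matched 1 annotated gene. Promoter windows were those of RefSeq.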

Additional observations from a re-analysis of the deposited data

Results flagged for a closer look

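A library was picked out where its gap to the nearest library of its group exceeded Dixon's 95% critical value for 6 samples. This held in 39 of 182 groups of values (21.4%), where chance alone flags about 1 in 20. Genes share libraries, so these are not independent.

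WTEE 10 gave 15 of them, in normalised counts unless stated. It was low for Rps6ka5 (665), the CREB coactivator gene Crtc1 (9229), the acetyltransferase gene Ep300 (1859) and Camk2a (111156). It was high for Epor (412), Mt2 (275), Ifit1 (253), Stmn2 (16963.5), Ptgds (85249), mt-Cytb (497660), Malat1 (137732), Hspa8 (83884), Gm43317 (176) and Svet1 (37.6). Read pairs that fell on several genes took 6.57% of its pairs, against at most 4.93% in the other WTEE libraries.

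Among the other WTEE libraries, mouse 17 was high for Mylk3 (227), Adgrf4 (266), Snap25 (103348) and Gm42822 (72.7), mouse 21 for Prl (697) and Gm10800 (6929), and mouse 13 for the choroid plexus marker Kl (8220).

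KDEE 12 was high for Gh (37.6), Ttr (434674), Kl (13706), Igf2 (17327), Gm10800 (199.97), Pdk4 (942) and the choroid plexus list (0.988% of counts), and low for Map2k1 (13994.5). KDEE 20 was low for Slc6a11 (8521), mt-Co1 (606872), mt-Cytb (252187) and the mitochondrial genes together (3.15% of counts). KDEE 14 was high for Cry1 (780.2). KDEE 15 was high for pairs on several genes (5.23%) and for the structural RNA list (0.862% of counts). KDEE 22 was high for Olfr55 (12.1) and had the fewest genes with a count (25476).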

How the results depend on the processing

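No paired analysis was possible because the mouse numbers do not recur between groups. The count of 0 genes called in edgeR became 118 with DESeq2 and 1 (Gm26788) with enriched libraries thinned to the smallest, and stayed 0 without each library in turn. Well-counted genes with an unadjusted p under 0.05 that were higher in WTEE numbered 127, 214 after thinning and 98 to 241 without each library. Those that were lower numbered 222, 143 with only the 12 enriched libraries, 102 with the share of pairs outside exons as a covariate (added after the data were seen) and 133 to 378 without each library. Of the 349, 36.4% were higher, against 46.8% with a minimum of 10 counts in every library, 50.6% after thinning and 57.3% with the covariate. Low-count models that were higher numbered 402, 919 with DESeq2, 1366 without a filter, 50 with at least 10 counts in every library, 176 with only the enriched libraries, 201 after thinning and 206 with the covariate. With at least 10 counts in every library 16595 genes were tested in place of 20187, and lower models numbered 22 in place of 52. The cause of these shifts was not tested. DESeq2 called 1 well-counted gene, Gh, for the difference between housings. The difference in the share of counts on low-count models was 0.0206 percentage points (exact permutation p = 0.104), 0.0164 for models with a mean under 20 counts (exact permutation p = 0.0152) and 0.0149 to 0.0262 without each library (exact permutation p = 0.0368 without KDEE 20). The difference in total counts was 8632060 to 14476000 without each library, and its exact permutation p passed 0.05 without WTEE 11, 13, 16 or 17 or KDEE 12, 15, 20 or 22.

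For single genes, 1616 of 1663 alternative values kept direction and side of the threshold, 13 passed it newly, and 34 in 15 genes changed sign. Hsp90ab1 was at 0.0031 with at least 10 counts, 0.0036 with only the enriched libraries, 0.0079 after thinning and 0.034 with the covariate, under which Ttr was at 2.05, Kl at 0.34 and Igf2 at 0.37. Without each library, the log2 fold change ranged from -0.12 to 0.013 for Crtc1, -0.16 to 0.043 for Ep300, -0.14 to 0.027 for Camk2a, -0.014 to 0.11 for Tubb3, -0.0021 to 0.087 for Stmn2 and -0.032 to 0.094 for Slc2a1. It ranged from -0.91 to 1.69 for Ttr, -1.34 to 0.76 for Kl, -0.45 to 0.75 for Ptgds, -0.76 to 0.68 for Igf2 and -0.036 to 0.54 for Hba-a1. It ranged from -0.045 to 0.035 for mt-Co1, -0.028 to 0.14 for mt-Cytb, -0.038 to 0.026 for Hsp90ab1 and -0.036 to 0.036 for Hspa8.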
